A study of Homo sapiens with 5 samples.

Results

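Splicing factor genes were examined in GFP-SAS cells, a tongue squamous cell carcinoma line carrying green fluorescent protein. Members were the genes whose symbol begins with SRSF and a number, HNRNP, SF3A or SF3B and a number, or SNRP. They numbered 57 of the 18239 genes measured, read by 200 probe sets, with 12 SRSF, 23 HNRNP, 9 SF3 and 13 SNRP genes. One of them, SNRPD2P2, is a pseudogene, and 12 had a single probe set. Cells were exposed for 24 h to DMSO, to 100 nM MLN8237 (alisertib, which inhibits the mitotic kinase AURKA), to the non-targeting control siNT, or to 10 nM of either siRNA against AURKA, siAURKA-1 or siAURKA-2. The dose of siNT is not given because the labels leave it ambiguous. Each of the 5 groups was read on 1 Affymetrix GeneAtlas array, so no test was possible, no p-value is given and every difference lacks a replicate check.

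Removal of introns is carried out by the spliceosome, which assembles on each intron from small nuclear ribonucleoproteins (snRNPs) and many other proteins. SNRP genes encode snRNP proteins, most of which form the Sm ring that closes around each small nuclear RNA, while SF3A and SF3B are the complexes with which the U2 snRNP holds the branch point. SR proteins (SRSF genes) bind exons through RNA recognition motifs and recruit the spliceosome through arginine-serine tails that kinases phosphorylate, and hnRNP proteins coat nascent RNA and often oppose them. Many carcinomas express SR and hnRNP proteins at altered levels, and several of these genes regulate their own mRNA through alternative exons.

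The deposited values are on a log scale taken as log2 and were centred per probe set on the median of the 5 arrays. A value of 0 therefore marks the middle array for that probe set, and values compare arrays for 1 gene but give no expression level. For the same reason the squamous identity of the line could not be checked from levels of its markers. Probe sets of 1 gene were summarised by their median, and differences between arrays are in log2 units. A difference counted as apart at 1.5-fold or more, which is 0.58 on this scale, and a difference of 0.32 or more served as a looser size. In such bulk RNA, fewer cells that express a gene and less of its RNA per cell cannot be told apart.

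The arrays carried the knockdown that their labels name, as read by the 1 probe set of AURKA. It was at 0.15 with DMSO, 0.64 with MLN8237, 0.00 with siNT, -3.36 after siAURKA-1 and -2.64 after siAURKA-2. Of the markers of other cell types, the 13 measured fibroblast, leukocyte and endothelial genes differed between -0.16 and 0.13 in the 5 comparisons. The 5 measured squamous epithelial markers spanned -1.82 to 0.62 in the comparisons with a control, the lowest being siAURKA-2 minus siNT, and -0.06 to 2.13 in siAURKA-1 minus siAURKA-2, with KRT5 at 2.13 and CDH1 at 1.06. Their part in the results below was not tested.

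Few splicing factor genes differed by 1.5-fold. The count was 2 of 57 for siAURKA-1 minus siNT, against 7.05% of all genes (1 higher, against 2.57%, and 1 lower, against 4.48%), and 0 of 57 for siAURKA-2 minus siNT, against 5.08% (1.96% higher and 3.11% lower). It was 0 of 57 for MLN8237 minus DMSO, against 0.482%, 2 of 57 for siNT minus DMSO, against 2.08%, both lower, against 0.554%. For siAURKA-1 minus siAURKA-2 it was 2 of 57, against 7.66%, both higher, against 3.68%. With the control arrays exchanged, it was 1 of 57 for siAURKA-1 minus DMSO, against 6.84%, 3 of 57 for siAURKA-2 minus DMSO, against 5.21% (HNRNPA0, SF3A3 and SRSF1), and 1 of 57 for MLN8237 minus siNT, against 1.61%. The cases in the 5 comparisons with matched controls or between the siRNAs came from 4 genes, HNRNPA3, HNRNPUL2, HNRNPA0 and SRSF8. At 0.32 or more, siAURKA-1 minus siNT had 10 members apart (17.5% of all genes), 5 higher (7.87%) and 5 lower (9.67%). For siAURKA-2 minus siNT there were also 10 (14.6%), 1 higher (6.4%) and 9 lower (8.16%). MLN8237 minus DMSO had 1 (3.02%), and siAURKA-1 minus siAURKA-2 had 6 (18.1%). Against the DMSO array nearly all members apart by that size were lower. There were 1 higher (9.32%) and 13 lower (8.41%) for siAURKA-1, and 1 higher (7.75%) and 16 lower (7.12%) for siAURKA-2. For siNT there were 0 higher (5.71%) and 3 lower (2.83%). The balance thus changed with the control for siAURKA-1, while for siAURKA-2 most were lower against either control. All genes here include any near background, since without levels these could not be set aside.

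**Figure D1:**
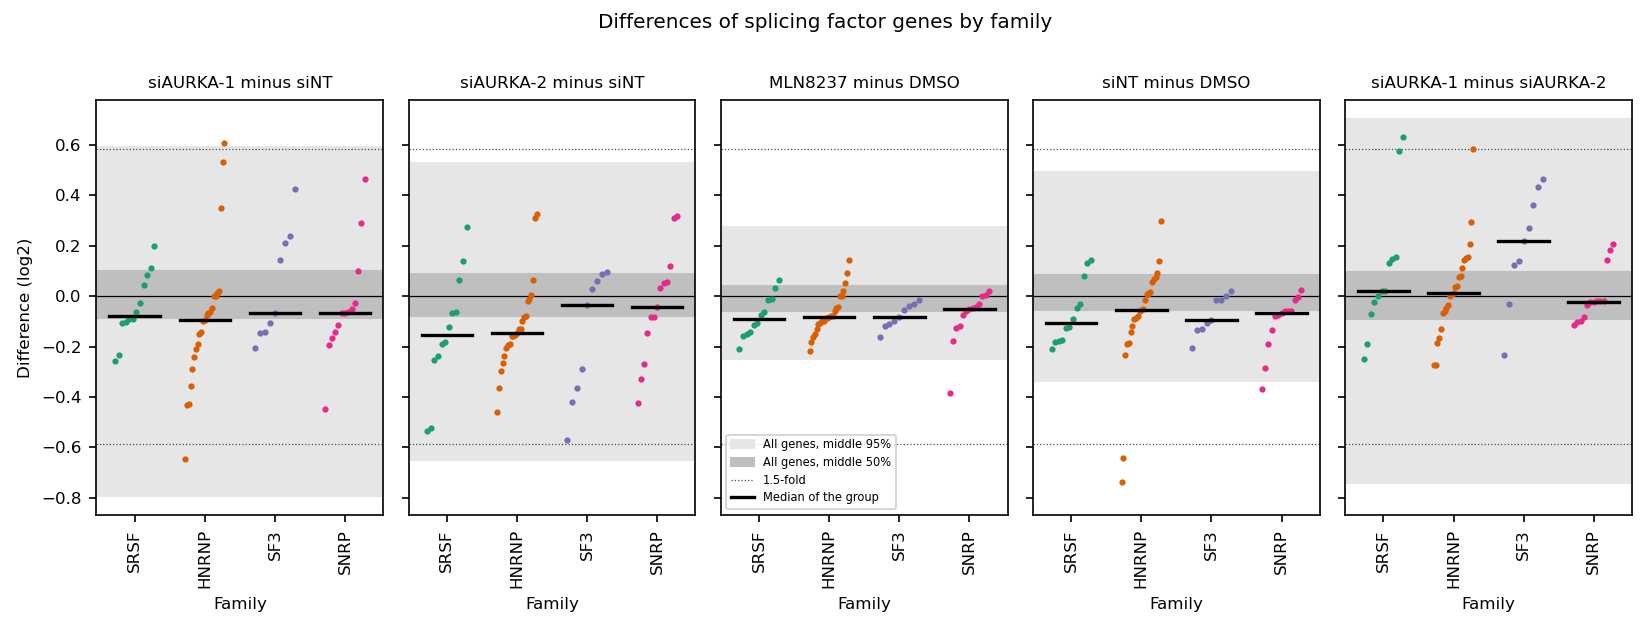
Log2 differences of the 57 splicing factor genes (points) by family (x axis) in 5 comparisons of single arrays, with black bars at family medians, grey bands for the middle 50% and 95% of all 18239 genes and dotted lines at 1.5-fold. Most points lie inside the wider band, and the family medians lie below 0 in the 4 comparisons with a control array.

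Small differences ran mostly downward. Against siNT, 39 of 57 members were lower with siAURKA-1 (median -0.07) and 40 of 57 with siAURKA-2 (median -0.12). Against DMSO, 47 of 57 were lower with MLN8237 (median -0.08) and 42 of 57 with siNT (median -0.07). Against the siNT array, MLN8237 was lower for 29 of 57, or 50.9%, with a median of -9.3e-05, and 50.9% of all genes were lower. The median over all genes was 0.00 in each of the 4 comparisons with matched controls, and the share of all genes below 0 was 42.2%, 42.3%, 46.1% and 39.6% in the same order. The first pair of comparisons shares the siNT array and the second pair the DMSO array. Other splicing genes, described below by list, leaned downward with siAURKA-2 as well. Below siNT were 28 of 43 other snRNP and spliceosome proteins, 28 of 37 other regulators of alternative splicing and 13 of 17 snRNP assembly genes. With siAURKA-1 the counts for these lists were 18, 21 and 13. The DMSO array was the highest of the 5 for 34 members, 59.6% of them, while 15.2% of all genes were highest there. The lowest array was siAURKA-2 for 22 members (38.6%, beside 17.7% of all genes) and siAURKA-1 for 21 (36.8%, beside 20.9%).

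**Figure D2:**
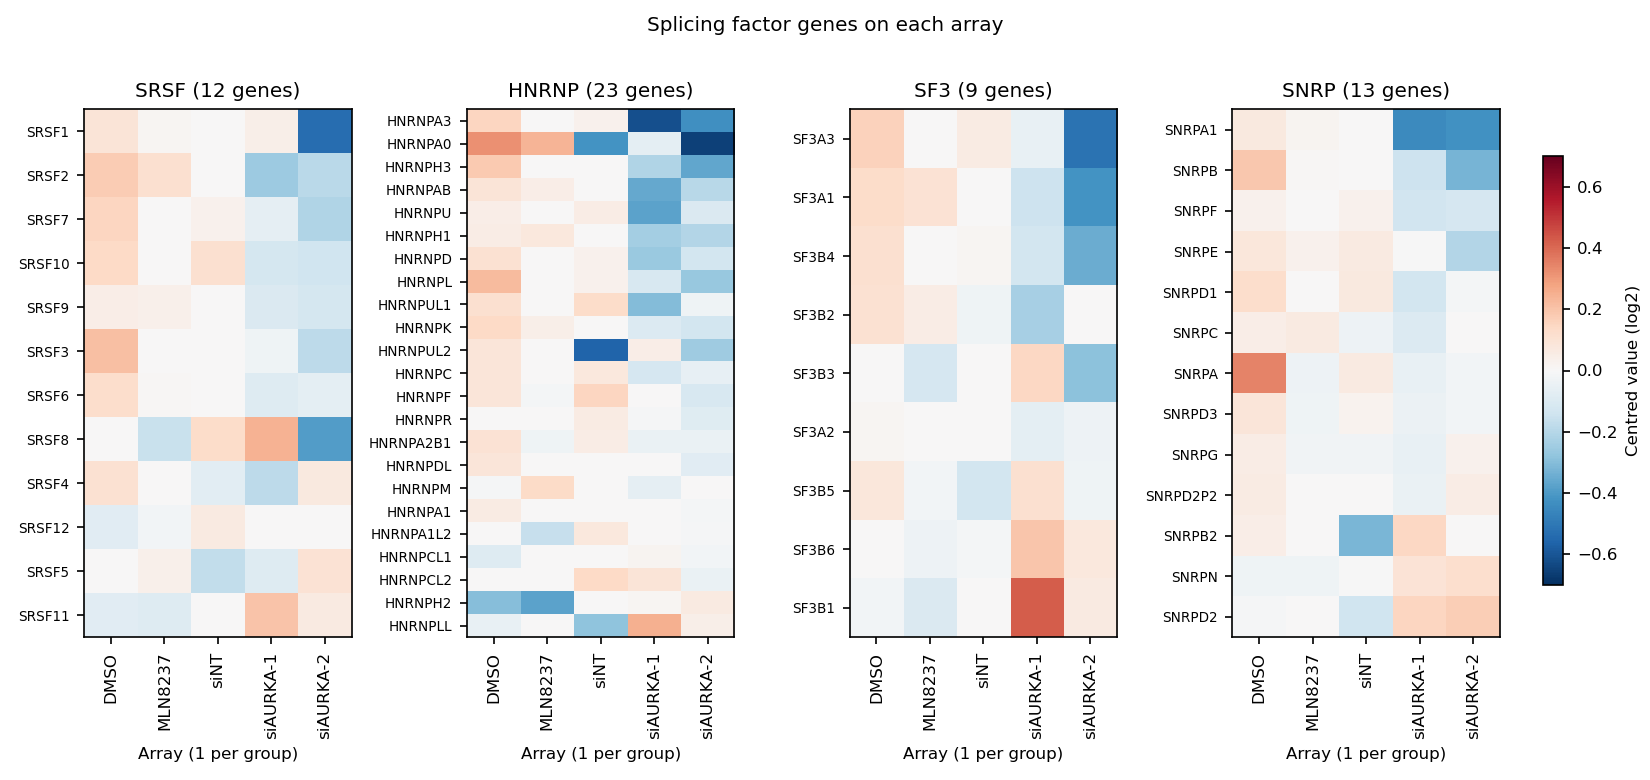
Centred log2 value of each splicing factor gene (rows) on each of the 5 arrays (columns), by family, with rows ordered by the sum of both siAURKA values. The DMSO column is mostly red (34 of 57 members highest there), and the deepest blues are HNRNPA0, HNRNPA3, SRSF1 and SF3A3 on siAURKA arrays and HNRNPUL2 on the siNT array.

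Sequence before the start of each gene was taken from RefSeq (GRCh38.p14) for 52 of the 57 members and 14484 of all genes measured. The 250 bases before the start were searched on both strands for 7 short motifs. Shown here are the 4 genes that reached 1.5-fold in the 5 comparisons and the lowest SRSF, SF3 and SNRP gene with siAURKA-2, so that the genes described below can be set beside their promoters. Capitals mark any match to a searched motif, and each sequence runs 5′ to 3′ on the strand of its gene. HNRNPA3 lies at chr2:177212544-177212793 (plus strand), HNRNPUL2 at chr11:62727458-62727707 (minus strand), HNRNPA0 at chr5:137754364-137754613 (minus strand) and SRSF8 at chr11:95066627-95066876 (plus strand). SRSF1 lies at chr17:58007247-58007496 (minus strand), SF3A3 at chr1:37990023-37990272 (minus strand) and SNRPA1 at chr15:101295249-101295498 (minus strand).
HNRNPA3: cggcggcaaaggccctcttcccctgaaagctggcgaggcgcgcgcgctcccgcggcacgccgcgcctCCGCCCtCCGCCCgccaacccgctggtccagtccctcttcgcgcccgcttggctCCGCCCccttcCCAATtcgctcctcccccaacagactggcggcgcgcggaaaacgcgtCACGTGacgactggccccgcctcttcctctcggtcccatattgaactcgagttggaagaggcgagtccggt
HNRNPUL2: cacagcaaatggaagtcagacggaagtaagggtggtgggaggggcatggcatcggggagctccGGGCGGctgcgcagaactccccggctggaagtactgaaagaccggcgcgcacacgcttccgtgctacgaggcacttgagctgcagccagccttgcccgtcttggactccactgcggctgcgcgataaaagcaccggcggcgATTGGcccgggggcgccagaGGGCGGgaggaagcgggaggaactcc
HNRNPA0: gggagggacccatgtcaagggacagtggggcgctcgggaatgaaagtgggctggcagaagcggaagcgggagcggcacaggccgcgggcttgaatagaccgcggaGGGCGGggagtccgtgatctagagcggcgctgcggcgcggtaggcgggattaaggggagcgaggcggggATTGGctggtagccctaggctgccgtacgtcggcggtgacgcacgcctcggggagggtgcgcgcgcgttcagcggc
SRSF8: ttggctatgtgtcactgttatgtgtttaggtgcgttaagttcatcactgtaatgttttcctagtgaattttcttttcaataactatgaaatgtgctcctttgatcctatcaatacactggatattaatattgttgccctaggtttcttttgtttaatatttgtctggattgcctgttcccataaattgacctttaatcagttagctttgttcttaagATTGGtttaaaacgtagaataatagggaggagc
SRSF1: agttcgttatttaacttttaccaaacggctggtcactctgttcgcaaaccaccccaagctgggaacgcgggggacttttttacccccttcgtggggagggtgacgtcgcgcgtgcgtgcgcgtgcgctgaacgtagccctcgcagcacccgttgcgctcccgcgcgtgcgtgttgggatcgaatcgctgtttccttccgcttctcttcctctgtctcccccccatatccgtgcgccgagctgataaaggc
SF3A3: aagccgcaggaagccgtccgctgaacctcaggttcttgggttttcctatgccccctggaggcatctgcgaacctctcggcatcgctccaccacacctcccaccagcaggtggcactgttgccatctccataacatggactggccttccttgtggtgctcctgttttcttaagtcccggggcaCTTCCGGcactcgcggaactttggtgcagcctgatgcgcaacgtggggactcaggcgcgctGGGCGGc
SNRPA1: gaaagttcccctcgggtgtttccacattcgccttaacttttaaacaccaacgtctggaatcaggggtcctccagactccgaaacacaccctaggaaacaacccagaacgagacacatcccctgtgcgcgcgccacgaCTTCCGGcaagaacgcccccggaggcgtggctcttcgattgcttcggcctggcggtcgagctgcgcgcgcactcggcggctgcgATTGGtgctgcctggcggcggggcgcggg

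The families differed in the motifs these windows hold. CCGGAAG, the core bound by ETS factors, was in 6 of 8 SF3 and 7 of 11 SNRP promoters, in 2 of 11 SRSF and 3 of 22 HNRNP promoters, and in 12.1% of all promoters. It stands in capitals as CTTCCGG, its other strand, in SF3A3 and SNRPA1. CCAAT was in 15 of 22 HNRNP promoters, among them HNRNPA3, HNRNPA0 and HNRNPUL2 (as ATTGG in the latter pair), and in 2 of 11 SRSF, 1 of 8 SF3 and 4 of 11 SNRP promoters, with 34.5% of all. The E-box CACGTG was in 6 of 22 HNRNP promoters, HNRNPA3 included, and in 1 other member's, with 7.84% of all. The GC box GGGCGG was in 31 of 52 member promoters and 57.3% of all, the TATA box TATAAA in 6 and 8.80%, the E2F motif TTTGGCGC in 1 and 0.725%, and the NRF1 core GCATGCGC in 2 and 3.76%. The SRSF8 window was 33.6% G or C, the lowest of the members, whose median was 62.0% beside 62.8% for all genes, and the SRSF1 window held no match. A match is a description of the letters and not a binding site.

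SR proteins are taken first. With siAURKA-1 the 12 SRSF genes lay between -0.26 and 0.20 of siNT, with a median of -0.08, and none was 0.32 or more apart. With siAURKA-2 their median was -0.15, and SRSF1 and SRSF8 were lower by more than 0.32. MLN8237 minus DMSO gave -0.21 to 0.06 and siNT minus DMSO -0.21 to 0.14. The family was highest on the DMSO array for 8 of its 12 genes, beside 15.2% of all genes.

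SRSF1, the founding SR protein and a known oncoprotein, was low on 1 array. Its value was 0.09 with DMSO, 0.01 with MLN8237, 0.00 with siNT, 0.04 after siAURKA-1 and -0.53 after siAURKA-2. The difference of siAURKA-2 was -0.53 from siNT and -0.62 from DMSO, and all 6 of its probe sets lay below siNT, from -0.69 to -0.38. The 6 probe sets split for siAURKA-1, with 3 above siNT and 3 below, from -0.49 to 0.34. SRSF1 lay 0.58 higher with siAURKA-1 than with siAURKA-2, just short of 1.5-fold, with all 6 probe sets higher.

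SRSF8, an SR gene closely related to SRSF2, had the same array lowest. Its single probe set gave 0.00 with DMSO, -0.16 with MLN8237, 0.13 with siNT, 0.24 after siAURKA-1 and -0.39 after siAURKA-2. The siRNAs thus differed by 0.63, which was the largest difference between them among the members, while siAURKA-1 minus siNT was 0.11 and siAURKA-2 minus siNT was -0.52.

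Other SR genes differed less. SRSF2, which recognises exonic enhancers and is recurrently mutated in myeloid disease, was at 0.18, 0.11, 0.00, -0.26 and -0.19 on the DMSO, MLN8237, siNT, siAURKA-1 and siAURKA-2 arrays, and was the lowest SRSF gene with siAURKA-1. Its 3 probe sets lay below siNT with both siRNAs, from -0.28 to -0.18 and from -0.35 to -0.17. SRSF3, the smallest SR protein, was at 0.21 with DMSO and 0.00 with MLN8237 and siNT, which made it the lowest SRSF gene in both comparisons with DMSO (-0.21 in each). With MLN8237 all 7 of its probe sets were below DMSO. SRSF5 was the highest with siAURKA-2 (0.27 above siNT), although the siNT array was its lowest at -0.17 and its siAURKA-2 value exceeded DMSO by 0.10. SRSF11 was the highest with siAURKA-1 (0.20), SRSF12 the highest in the comparisons with DMSO (0.06 with MLN8237 and 0.14 with siNT), and SRSF4 the lowest of the family in siAURKA-1 minus siAURKA-2 (-0.25).

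SRSF10, which represses splicing when its tail is dephosphorylated, is named after its values were seen because its probe sets disagreed most in the comparisons with siNT. In MLN8237 minus DMSO the widest gap was that of HNRNPD (0.53), and in siAURKA-1 minus siAURKA-2 that of HNRNPDL (1.04), which is likewise named after its values were seen. The SRSF10 median was -0.23 for siAURKA-1 minus siNT, yet single probe sets ran from -0.57 to 0.80, and for siAURKA-2 minus siNT from -0.86 to 0.78. Probe sets of a gene can read different transcripts, so a gene median covers up such splits. Among the 45 members with several probe sets, 21 had probe sets on both sides of siNT for siAURKA-1, and 17 did for siAURKA-2. For MLN8237 minus DMSO there were 20 such members. The median gap between the highest and lowest probe set was 0.25, 0.24 and 0.19, in the same order.

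**Figure D3:**
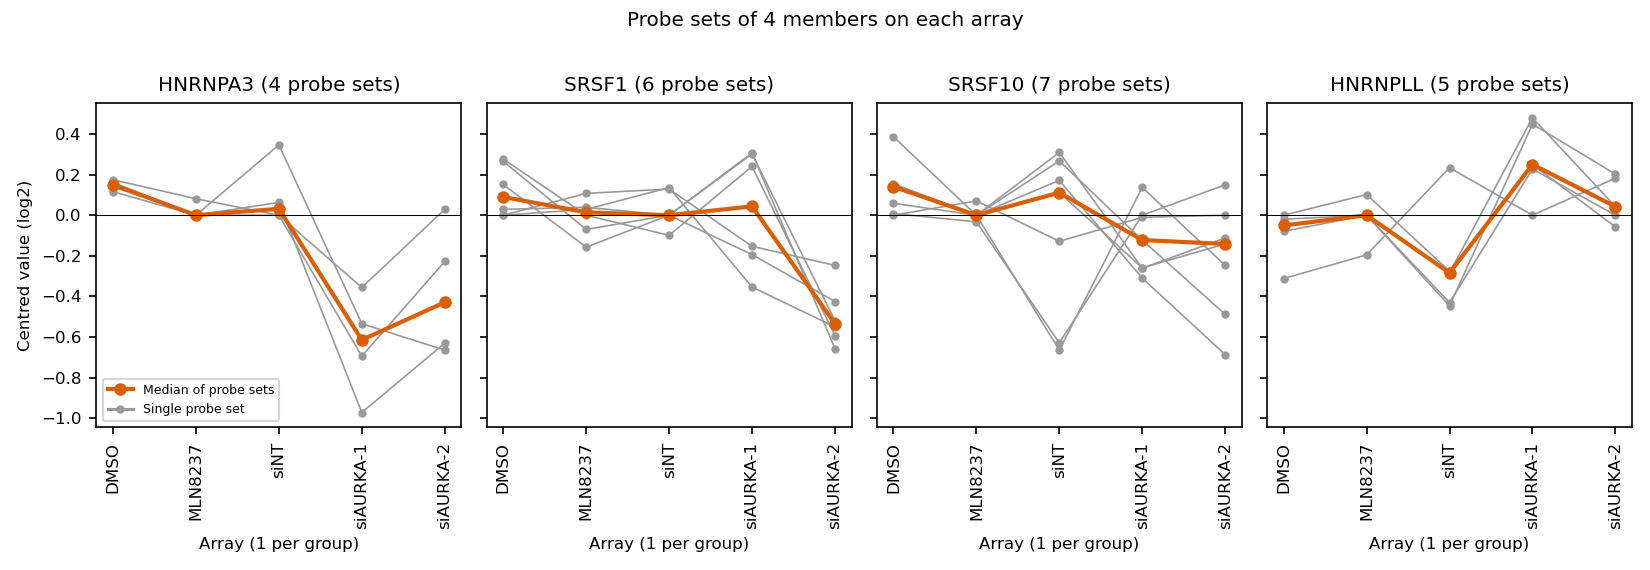
Centred log2 value of every probe set (grey lines) and their median (orange) for HNRNPA3, SRSF1, SRSF10 and HNRNPLL on the 5 arrays. All 6 SRSF1 probe sets are lower with siAURKA-2 than with siNT, 4 of 5 HNRNPLL probe sets are lowest with siNT, and those of SRSF10 part on the siNT array.

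The hnRNP genes, 23 of the 57 members, held 3 of the 4 members that reached 1.5-fold in those 5 comparisons. They also held 3 of the 6 members whose range over the 5 arrays reached it. That is 13.0% of the hnRNP genes, beside 10.5% of all members, 16.7% of SRSF genes and 16.2% of all genes. Relative to siNT, 16 of 23 were lower with siAURKA-1 (median -0.09) and 19 of 23 with siAURKA-2 (median -0.14). HNRNPA3, an hnRNP of the A/B group that packages RNA, was the lowest member with siAURKA-1. It was at 0.15 with DMSO, 0.00 with MLN8237, 0.03 with siNT, -0.61 after siAURKA-1 and -0.43 after siAURKA-2. Both siRNA arrays lay below the other 3 arrays. Relative to siNT these were differences of -0.65 and -0.46, or 1.56-fold and 1.38-fold, and relative to DMSO of -0.76 and -0.58. All 4 probe sets were lower with siAURKA-1, from -1.03 to -0.36, and 3 of 4 with siAURKA-2, from -1.01 to 0.03.

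HNRNPA3 and the U2 snRNP gene SNRPA1 were the members lower by 0.32 or more with both siRNAs than on both control arrays, 2 of 57 beside 1.44% of all genes. No member was that much higher in the same way, beside 0.927% of all genes.

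HNRNPUL2, a relative of the nuclear scaffold protein hnRNP U, was the highest member with siAURKA-1, and this rested on the siNT array. Its single probe set gave 0.08 with DMSO, 0.00 with MLN8237, -0.56 with siNT, 0.05 after siAURKA-1 and -0.25 after siAURKA-2. The siNT array was by far the lowest, so siAURKA-1 was 0.61 above siNT but -0.04 from DMSO. In siNT minus DMSO it stood at -0.64.

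HNRNPA0, which binds AU-rich elements of inflammatory mRNAs, had the widest range of the members, 0.97. It was at 0.32 with DMSO, 0.24 with MLN8237, -0.42 with siNT, -0.07 after siAURKA-1 and -0.65 after siAURKA-2. All 3 siRNA arrays, siNT included, lay below the DMSO and MLN8237 arrays. The difference was -0.74 for siNT minus DMSO, 0.35 and -0.24 for siAURKA-1 and siAURKA-2 minus siNT, and 0.59 between the siRNAs, at the 1.5-fold line. Its 2 probe sets disagreed on size, with siNT minus DMSO at -1.34 and -0.14, and lay on opposite sides of siNT with either siRNA.

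HNRNPLL, a regulator of CD45 exon choice in lymphocytes, also had siNT lowest. It was at -0.05, 0.00, -0.28, 0.25 and 0.04 on the DMSO, MLN8237, siNT, siAURKA-1 and siAURKA-2 arrays. The siAURKA-1 value exceeded siNT by 0.53 and the siAURKA-2 value by 0.33, the latter the highest of all members, and exceeded DMSO by 0.30 and 0.09.

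The scaffold protein gene HNRNPU and its relative HNRNPUL1 were lower with siAURKA-1. HNRNPU was at 0.04 with DMSO, 0.00 with MLN8237, 0.05 with siNT, -0.37 after siAURKA-1 and -0.10 after siAURKA-2. All 8 of its probe sets lay below siNT with siAURKA-1, from -0.61 to -0.02, and it was the lowest hnRNP gene in siAURKA-1 minus siAURKA-2 (-0.27). HNRNPUL1 minus its siNT value was -0.43 for siAURKA-1 and -0.16 for siAURKA-2, and for HNRNPAB these were -0.36 and -0.19, with all 3 of its probe sets lower. HNRNPD, which binds AU-rich mRNA and has 9 probe sets, gave -0.29 and -0.16. These 3 are named after their values were seen.

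Among G-run binding hnRNPs, HNRNPH3 was at 0.18 with DMSO and -0.36 with siAURKA-2, a difference of -0.55, with 0.00 for MLN8237 and siNT and -0.21 for siAURKA-1. HNRNPH2 ran the other way, at -0.30 with DMSO and -0.38 with MLN8237 and between 0.00 and 0.06 on the 3 siRNA arrays, and was the highest hnRNP gene in siNT minus DMSO (0.30). HNRNPL, which binds CA repeats, was the lowest with MLN8237 (-0.22 against DMSO) and HNRNPM the highest (0.14), with all of their probe sets on that side. HNRNPA1, the best studied hnRNP, was nearly level, between -0.01 and 0.06 on the 5 arrays as the median of 5 probe sets, and HNRNPA2B1 lay between -0.05 and 0.10. A single HNRNPA1 probe set went against this median at 0.64 above siNT with siAURKA-2. It carries the s suffix, and the others carry the x suffix for cross-hybridising probes. HNRNPA1 and HNRNPA2B1 are named after their values were seen. HNRNPA1 has many processed copies in the genome, so its probe sets may read more than 1 locus.

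The SF3 genes parted between the siRNAs. Against siNT their median was -0.07 for siAURKA-1 and -0.04 for siAURKA-2, and that of the direct difference, siAURKA-1 minus siAURKA-2, was 0.22, with 7 of 9 genes above 0. Over all genes that median was 0.00, with 45.5% above 0. The SF3 genes were not alone in this. Of 43 other snRNP and spliceosome proteins, described below, 29 were above 0 and 14 below, with a median of 0.12. By 0.32 or more, 3 SF3 genes and 8 of those 43 were higher with siAURKA-1, where 8.96% of all genes were. That much lower were 0 SF3 genes and 2 of the 43, beside 1675 of all 18239 genes. The 5 measured squamous epithelial markers were mixed in siAURKA-1 minus siAURKA-2. They stood at 2.13 (KRT5), 1.06 (CDH1), 0.31 (KRT14), 0.08 (EPCAM) and -0.06 (DSG3). Their part in the SF3, SRSF8 and HNRNPA0 differences was not tested.

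SF3A3, a subunit of the SF3A trimer that joins U2 to the branch site, was at 0.16 with DMSO, 0.00 with MLN8237, 0.05 with siNT, -0.05 after siAURKA-1 and -0.52 after siAURKA-2. It was the lowest of all members with siAURKA-2 (-0.57 against siNT and -0.68 against DMSO), and both probe sets were lower, at -0.66 and -0.48. SF3A1, of the same trimer, was at 0.13, 0.10, 0.00, -0.15 and -0.42 on the DMSO, MLN8237, siNT, siAURKA-1 and siAURKA-2 arrays. All 3 probe sets of SF3A1 lay below siNT with siAURKA-2. SF3A2, the third subunit, was nearly level, between -0.07 and 0.02 over the arrays from 1 probe set.

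SF3B1, the large subunit that clamps the branch point and a frequent target of mutation in leukaemia, was high with siAURKA-1. It was at -0.02 with DMSO, -0.10 with MLN8237, 0.00 with siNT, 0.43 after siAURKA-1 and 0.06 after siAURKA-2. The siAURKA-1 array stood apart from the other 4, and all 3 probe sets were above siNT there, from 0.24 to 0.46. SF3B3 was at 0.14 with siAURKA-1 and -0.29 with siAURKA-2, with 0.00 for both controls, and all 3 of its probe sets were above siNT with the former and below it with the latter. SF3B4 differed from siNT by -0.36 with siAURKA-2 from 1 probe set, and SF3B3 and SF3B4 are named after their values were seen. SF3B2 was the lowest SF3 gene with siAURKA-1 (-0.21) and in siAURKA-1 minus siAURKA-2 (-0.23). SF3B5 was the highest with siAURKA-2 (0.10) and the lowest in siNT minus DMSO (-0.21).

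With MLN8237 all 9 SF3 genes were below DMSO, but by little, from -0.16 for SF3A3 to -0.02 for SF3A2. The share of all genes below DMSO was 46.1%. None of the 9 was 0.32 or more apart. Against the siNT array 5 of the 9 were lower with MLN8237 and 3 higher (median -0.015). The DMSO array was the highest for 5 of the 9, beside 15.2% of all genes.

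The snRNP genes had the narrowest ranges of the 4 families. None of the 13 SNRP genes had a range of 1.5-fold over the 5 arrays, whereas 16.2% of all genes did, and their median range was 0.25 (0.22 for all genes). The 8 Sm ring genes, SNRPN among them, lay between -0.20 and 0.29 of siNT with siAURKA-1 and between -0.33 and 0.31 with siAURKA-2. SNRPB, the shared Sm B protein, was at 0.19 with DMSO, 0.01 with MLN8237, 0.00 with siNT, -0.14 after siAURKA-1 and -0.33 after siAURKA-2, and 8 of its 9 probe sets lay below siNT with each siRNA. SNRPB and SNRPD2 are named after their values were seen. SNRPD2 was the Sm gene furthest above siNT (0.29 and 0.31), from 1 probe set. SNRPN, an imprinted gene expressed chiefly in brain, gave 0.10 and 0.12. SNRPD1 was the lowest SNRP gene (-0.11) and SNRPE the highest (0.21) in siAURKA-1 minus siAURKA-2.

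SNRPA1 and SNRPB2, whose proteins bind together to a stem loop of U2 RNA, differed from siNT in opposite directions. SNRPA1 was at 0.07 with DMSO, 0.02 with MLN8237, 0.00 with siNT, -0.45 after siAURKA-1 and -0.43 after siAURKA-2, so both siRNA arrays lay below the other 3. Of its 3 probe sets, 2 lay below siNT with either siRNA, reaching -0.56 and -0.47, and 1 slightly above. SNRPB2 was at 0.05 with DMSO, 0.00 with MLN8237, -0.32 with siNT, 0.14 after siAURKA-1 and 0.00 after siAURKA-2. Here the siNT array was the low one, and all 4 probe sets shared this. SNRPB2 was thus 0.46 and 0.32 above siNT but 0.10 and -0.05 from DMSO.

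Among U1 proteins, SNRPA stood out with MLN8237. It was at 0.35 with DMSO, -0.04 with MLN8237, 0.06 with siNT, -0.05 after siAURKA-1 and -0.02 after siAURKA-2. It was the 1 member 0.32 or more apart in MLN8237 minus DMSO (-0.38, with 4 of 4 probe sets lower, from -0.59 to -0.13), where 1.16% of all genes were lower by that size. The DMSO array was high against all 4 others, siNT included (-0.29), and MLN8237 minus siNT was -0.10. SNRPC, its partner in U1, was the highest SNRP gene with MLN8237 (0.02).

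Another 6 lists of splicing genes were set beside the families. Of 43 other snRNP and spliceosome proteins, 1 was at least 1.5-fold lower and 0 higher with each siRNA against siNT, beside 4.48% (siAURKA-1) and 3.11% (siAURKA-2) of all genes lower. With siAURKA-1 this was PRPF4, of the U4/U6 snRNP, at 0.19, 0.00, 0.12, -0.89 and -0.18 on the DMSO, MLN8237, siNT, siAURKA-1 and siAURKA-2 arrays (-1.02 against siNT, with its 3 probe sets from -1.31 to -0.82). With siAURKA-2 it was U2SURP, a U2-associated SR-like protein, at 0.00, 0.00, 0.26, -0.10 and -0.81 (-1.07 against siNT, from -1.33 to -0.81). The list's medians were 0.03 and -0.07. SLU7 was the highest with siAURKA-1 (0.47) and PRPF18 with siAURKA-2 (0.19). In MLN8237 minus DMSO the list ran from -0.25 for DDX39B to 0.27 for CDC40, and in siNT minus DMSO from -0.34 for ZMAT2 to 0.55 for CDC40.

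Of the 8 measured kinases of SR proteins, 1 was 1.5-fold higher with siAURKA-1 (2.57% of all genes) and 1 lower with siAURKA-2 (3.11%). SRPK2 was at -0.02 with DMSO, 0.00 with MLN8237, -0.13 with siNT, 0.64 after siAURKA-1 and 0.05 after siAURKA-2. SRPK1, its paralog, was at 0.12, 0.02, 0.00, -0.10 and -0.67 on the same arrays. Each thus stood apart on 1 siRNA array, SRPK2 by 0.77 and SRPK1 by -0.67 against siNT. All 3 SRPK2 probe sets were higher, from 0.75 to 0.83, whereas those of SRPK1 ran from -0.71 to 0.00. CLK1, a nuclear SR kinase, was the lowest with siAURKA-1 (-0.28) and the highest in siNT minus DMSO (0.50). CLK2 was the lowest (-0.15) and CLK4 the highest (0.02) with MLN8237, and CLK4 was the lowest in siAURKA-1 minus siAURKA-2 (-0.13).

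The 8 LSM genes, whose products form rings on U6 RNA and on decaying mRNA, were lower with siAURKA-1 at the median (-0.30 against siNT), while siAURKA-2 gave -0.04. LSM6 was the 1 of 8 that was 1.5-fold lower with siAURKA-1 (-0.60, beside 4.48% of all genes), and was -0.46 with siAURKA-2. LSM2 parted the siRNAs by -0.62 (-0.41 and 0.21 against siNT) and LSM4 was the highest with both (0.11 and 0.44), although the siNT array was its lowest and the differences from DMSO were -0.21 and 0.11. With MLN8237 the list ran from -0.27 for LSM2 to 0.09 for LSM1.

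Of 17 snRNP assembly genes, 0 were 1.5-fold apart with siAURKA-1 (7.05% of all genes) and 1 with siAURKA-2 (5.08%). This was GEMIN5, which recognises small nuclear RNA for the SMN complex, which differed from siNT by 0.18 for siAURKA-1 and -0.67 for siAURKA-2. COIL, encoding the Cajal body protein coilin, was the lowest with siAURKA-1 (-0.54) and stood 0.49 above DMSO with siNT. GEMIN2 was the highest with siAURKA-2 (0.18), GEMIN8 the lowest in siAURKA-1 minus siAURKA-2 (-0.40), and with MLN8237 the list ran from -0.22 for GEMIN4 to 0.10 for DDX20.

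Among 37 other regulators of alternative splicing, 1 was 1.5-fold lower with each siRNA and 0 were higher, beside 4.48% (siAURKA-1) and 3.11% (siAURKA-2) of all genes lower. QKI, which binds introns beside regulated exons, differed from siNT by -0.89 (siAURKA-1) and -0.46 (siAURKA-2), but its 6 probe sets ran from -2.77 to 0.06 and from -4.22 to 0.13. RALY, an hnRNP-like protein, was 0.09 and -0.70. RBM25 was the highest with siAURKA-1 (0.43), RBFOX2 with siAURKA-2 (0.34), and MBNL2 in siNT minus DMSO (0.60). With MLN8237 the list ran from -0.27 for SON to 0.31 for PTBP2.

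In the exon junction complex, 1 of 5 genes was 1.5-fold higher with siAURKA-1, beside 2.57% of all genes. This was RBM8A, at 0.10, 0.06, -0.66, 0.13 and -0.08 on the DMSO, MLN8237, siNT, siAURKA-1 and siAURKA-2 arrays, so again siNT was the low array. MAGOHB was the lowest with siAURKA-1 (-0.42) and the highest with MLN8237 (0.23), while EIF4A3 was the lowest with siAURKA-2 (-0.03) and with MLN8237 (-0.14).

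**Figure D4:**
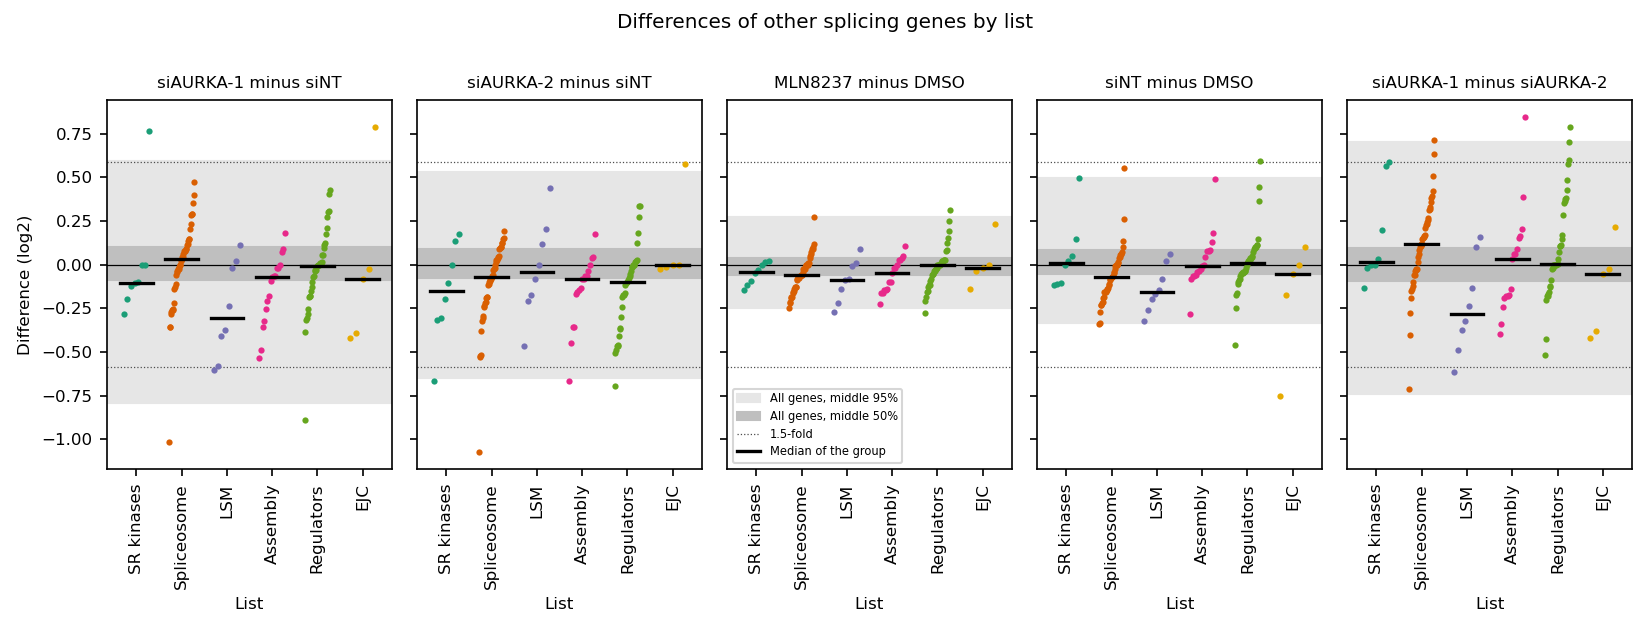
Log2 differences of the genes of 6 other splicing lists (points; EJC, exon junction complex) in the same 5 comparisons, with list medians (black bars), bands of all genes and lines at 1.5-fold as in the plot by family. PRPF4 (-1.02, siAURKA-1) and U2SURP (-1.07, siAURKA-2) lie lowest, and the LSM median is -0.30 with siAURKA-1.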

How the data were processed

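Each of 5 groups of GFP-SAS cells gave 1 array, and groups follow the treatment label. The authors deposited log2 values (log base assumed) of 49386 probe sets. RMA is named in the submitters' processing notes, with no version; the software is not given in the sources used here. The median over the arrays was exactly 0 in all 49386 probe sets, a centring that no source records and that removes expression levels, so no filter on low genes was possible. The 45259 probe sets naming 1 gene gave 18239 genes as medians of probe sets, with symbols by Entrez number. Another 13 probe sets that name a member beside another gene were left out, and SNRNP genes fall outside the rule. Of the member probe sets, 60 carry the x suffix for probes that can cross-hybridise. The number of arrays limits precision and no test was run. Differences were computed in Python 3.11.15 with pandas 2.3.3. The code was run on simulated data with little noise and large differences planted alike in all probe sets of a gene. That checks the arithmetic and not how reliable the real differences are. Named genes are members at least 1.5-fold apart, the highest and lowest of each family or list per comparison, the 10 members of widest range, and AURKA. Others are marked in the text. Members and lists were chosen with earlier results of these data known. Alternatives covered thresholds, scaling, probe set summaries and the control array.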

Additional observations from a re-analysis of the deposited data

Results flagged for a closer look

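SRSF8 and HNRNPA0 drew attention because siAURKA-1 and siAURKA-2 put them on opposite sides of siNT while standing at least 1.5-fold apart from each other. For SRSF8 the difference between the siRNAs was 0.63 (0.11 and -0.52 against siNT), from a single probe set. For HNRNPA0 it was 0.59 (0.35 and -0.24 against siNT), at the 1.5-fold line, and both of its probe sets were higher with siAURKA-1 than with siAURKA-2. Neither probe set alone lay on opposite sides of siNT. The first was above siNT with both siRNAs (0.84 and 0.19) and the other below with both (-0.14 and -0.66). Against DMSO, HNRNPA0 was -0.39 and -0.97. For HNRNPA0 the opposite directions thus depend on the siNT array and on the median of probe sets that disagree. Against DMSO, SRSF8 was 0.24 with siAURKA-1 and -0.39 with siAURKA-2, so its directions were opposite there too. With 1 array per siRNA neither difference was tested.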

How the results depend on the processing

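The threshold was set at 0.32 in place of 0.58 (log2). The members apart then numbered 10 for siAURKA-1 minus siNT (17.5% of all genes) and 10 for siAURKA-2 minus siNT (14.6%). They numbered 1 for MLN8237 minus DMSO (3.02%) and 6 for siAURKA-1 minus siAURKA-2 (18.1%). At 2-fold the counts of 2 each became 0. Of all 18239 genes, 107 were 2-fold higher and 251 lower for siAURKA-1 minus siNT. For siNT minus DMSO these were 42 and 12, and for siAURKA-1 minus siAURKA-2 177 and 217. With the other control array the counts were 1 for siAURKA-1 (6.84% of all genes), 3 for siAURKA-2 (5.21%) and 1 for MLN8237 (1.61%). The SRSF median with siAURKA-1 was then -0.18. HNRNPUL2 changed sign from 0.61 to -0.037 with siAURKA-1 and from 0.31 to -0.33 with siAURKA-2. HNRNPA0 with siAURKA-1 changed sign from 0.35 to -0.39, and other members changed sign as well. With the mean of both controls the counts were 1 for siAURKA-1 and 2 for siAURKA-2. After renewed quantile normalization they were 1 for siAURKA-1 minus siNT, 1 for MLN8237 and 0 between the siRNAs. Without probe sets of the s and x suffix, siAURKA-2 minus siNT had 2. For the mean control, the renewed normalization and the suffix setting, the share of all genes is not given here. Those counts are therefore not a result about the members. The cause of the changes was not tested, beyond the threshold and control that define each setting. Family medians otherwise moved by at most 0.1. No paired analysis was possible because each group has 1 array.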
